A study of Homo sapiens with 22 samples.

Results

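The integrin and laminin genes are the 37 genes, of 33694 in the deposited tables, whose symbol is that of an integrin alpha subunit, an integrin beta subunit or a laminin chain. Within this family they were taken by symbol alone, while the family itself was chosen with earlier results of these data known. They comprise 17 integrin alpha subunits, 8 integrin beta subunits, 5 laminin alpha chains, 4 laminin beta chains and 3 laminin gamma chains. Laminins are secreted as trimers of 1 alpha, 1 beta and 1 gamma chain and form the sheet of the basement membrane, the thin matrix under epithelia and around the early embryo. Integrins are pairs of 1 alpha and 1 beta subunit in the cell membrane, and the alpha subunit largely sets whether a pair binds laminin, collagen or the fibronectin group of ligands. Fibroblasts are attached mainly to fibronectin and collagen, whereas human pluripotent stem cells are commonly grown on laminin or vitronectin.

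The cells were human BJ foreskin fibroblasts, an established line grown here in microfluidic chambers coated with fibronectin, a ligand of several of these integrins. D0 is the culture before transfection, of fibroblasts that the paper kept in DMEM with fetal bovine serum. A reprogramming medium was used from day 1. Every comparison with D0 therefore also spans a change of medium, which cannot be told apart from transfection and day. The other groups, D3, D5, D7, D9, D11, D13 and D15, received a nightly transfection of RNAs encoding POU5F1, SOX2, KLF4, MYC, LIN28 and NANOG from day 1 up to day 8, and the medium was changed to a pluripotency medium from day 9. The period D9 to D15 therefore differs from D3 to D7 in day, in medium and in whether transfection was under way, which cannot be told apart. Each day has 2 pools, A and B, each made of cells from several chips and frozen before capture, and for 6 of the 16 pools 2 aliquots were sequenced, so that there were 22 libraries of 3′ single-cell RNA sequencing.

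A pool held between 33181614 and 180056814 UMIs (unique molecular identifiers, 1 per captured RNA molecule) from 571 to 6142 cells, with a median of 23717 to 80168 UMIs per cell. Levels are given as CPM, the UMIs of a gene scaled to a pool total of 1000000. In 3′ data an RNA gives 1 tag whatever its length, so no length correction was made, and levels were compared between genes only as shares of counted molecules. No 2 libraries shared more than 39 cell barcodes, and the shared ones were at most 2.11% of the smaller library of a pair (4 barcodes there, and 0.816% for the pair that shared 39). Aliquots of a pool were compared over 127 values of these genes with at least 20 UMIs in each aliquot. Their median absolute log2 ratio was 0.478, and 31 of them (24.4%) lay within 2 counting standard errors of 0. Pools A and B of the same day differed by a median of 0.268 over 184 values. The 2 medians cannot be ranked, since the aliquots are of D5, D7, D9 and D11 only. The pools are of every day, with aliquots summed and no limit on UMIs. On D9 the second aliquots of pools A and B resembled each other more (Pearson's r of 0.997 over all genes tested) than either resembled the first aliquot of its own pool (0.945 and 0.971). Summed markers differed between the ends of the time course: 8 fibroblast markers went from 10850 and 10600 CPM on D0 to 999.8 and 1196 CPM on D15, and 8 pluripotency markers from 6.33 and 6.58 to 3341 and 3110 CPM. Most of the fibroblast sum of D0 was S100A4 (6587 and 6193 CPM), though each of the 8 was lower on D15 than on D0. That sum did not fall steadily, with 5350 and 5032 CPM on D3, 8077 and 5476 on D5, 2613 and 2372 on D9 and 3420 and 3666 on D11. The 8 mesendoderm markers were at 0.138 and 0.143 CPM on D0 and at 222.8 and 159.1 CPM on D11, while 4 leukocyte markers summed to 4.08 to 17.3 CPM and 4 endothelial markers to 0.272 to 29.9 CPM over all pools.

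Of the 37 genes, 23 were detected often enough to be tested. In D15 against D0, which asks how the end of the time course differed from the starting fibroblasts, 5 of 23 were higher and 11 lower (21.7% and 47.8%), where 26.8% of all genes tested were higher and 26.3% lower. The median log2 fold change of the 23 was -0.93, against 0.01 for all 12944 genes tested. Between D3 to D7 and D9 to D15, 7 were higher and 7 lower in the later period (30.4% each way), beside 21.3% and 22.5% of all genes. Calls needed an adjusted p under 0.01 together with a log2 fold change of more than 0.25 in size (edgeR's quasi-likelihood test on pool sums, Benjamini-Hochberg adjustment over all genes tested). The spread in this fit is that between the pools of a day, so the calls between periods speak of these days. Summed over the genes, the integrins stood at 991.2 and 955.4 CPM on D0 and at 569.0 and 473.1 CPM on D15, with 524.5 and 981.8 CPM on D3 and 951.9 and 1028 CPM on D11 between them. Most of this sum was ITGB1. The laminins stood at 189.2 and 196.5 CPM on D0, 248.5 and 218.0 CPM on D5 and 102.0 and 92.4 CPM on D15. In these pool sums, fewer cells of a type and less RNA per cell cannot be told apart.

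**Figure D1:**
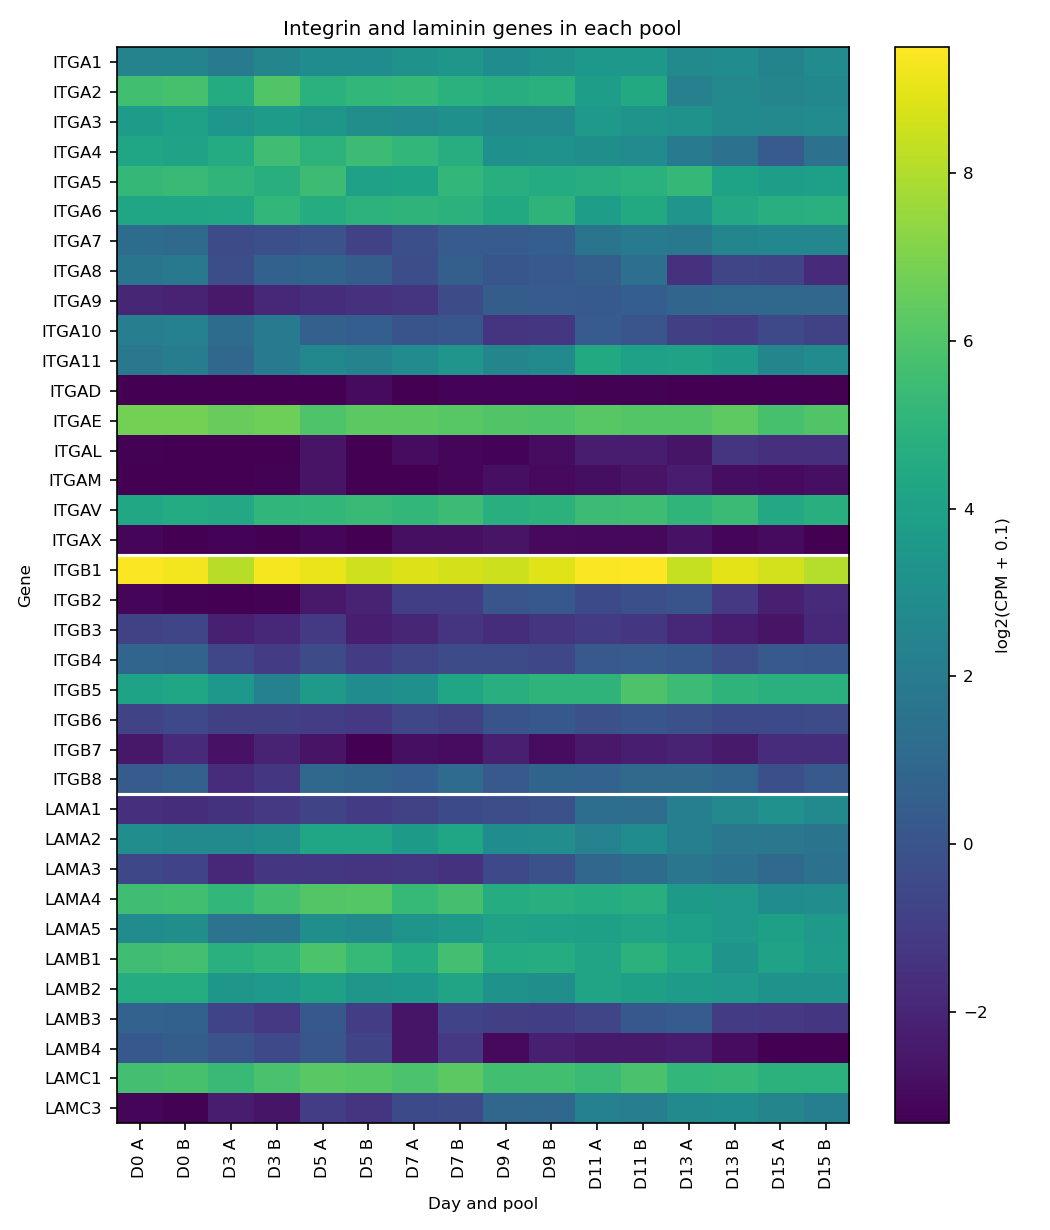
Level of integrin and laminin genes (rows) in each of the 16 pools (columns, by day and pool letter), as log2(CPM + 0.1), with white lines between integrin alpha subunits, integrin beta subunits and laminins. ITGB1 is bright in every pool, LAMC3 and LAMA1 go from dark on D0 to mid-scale on D15, and ITGA4 and LAMA4 darken from D9 on.

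The laminin alpha chains, which decide the receptor a laminin binds, shifted in their shares over the time course. LAMA4, the chain of mesenchymal and vessel wall laminins, gave 74.9% and 75.7% of all laminin alpha UMIs on D0 and 20.02% and 23.9% on D15. LAMA5, the chain of the laminin on which human pluripotent stem cells are often cultured, gave 11.6% and 12.3% on D0 and 42.0% and 36.6% on D15, and LAMA1, the first laminin alpha chain of the early embryo, 0.375% and 0.340% on D0 and 23.9% and 21.96% on D15.

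In pools A and B, LAMA4 (chromosome 6, 112107931 to 112254939, minus strand) stood at 46.7 and 48.5 CPM on D0, 35.5 and 48.3 on D3, 66.0 and 70.0 on D5 and 38.5 and 52.0 on D7. LAMA4 then stood at 24.2 and 25.8 on D9, 24.0 and 26.6 on D11, 12.4 and 12.1 on D13 and 7.44 and 7.61 on D15. Its 8 later pools were all below its 6 pools of D3 to D7, the lowest level being on D15. Relative to D0 the D15 pools had a log2 fold change of -2.74 (SE 0.22, adjusted p = 2.50e-07), and the later period relative to the earlier one a log2 fold change of -1.75 (SE 0.11, adjusted p = 2.26e-08). LAMA2, the chain of muscle and nerve basement membranes, was measured at 7.60 and 6.99 CPM on D0, 6.89 and 8.19 on D3, 18.2 and 18.4 on D5 and 12.4 and 19.4 on D7. LAMA2 then stood at 7.52 and 7.61 on D9, 5.08 and 7.50 on D11, 4.47 and 3.37 on D13 and 3.29 and 2.95 on D15. It peaked on D5 and D7 and was at its lowest on D15, with a log2 fold change of -1.32 (SE 0.25, adjusted p = 4.63e-04) for D15 against D0.

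For LAMA5 (chromosome 20, 62307955 to 62367312, minus strand) the pools read 7.26 and 7.88 CPM on D0, 2.84 and 3.02 on D3, 8.37 and 6.89 on D5 and 9.91 and 11.7 on D7. LAMA5 then stood at 16.4 and 15.9 on D9, 15.4 and 17.9 on D11, 15.2 and 12.1 on D13 and 15.6 and 11.7 on D15. It was lowest on D3, and the later pools overlapped the earlier ones only at their lower end. The later period had a log2 fold change of 1.22 (SE 0.10, adjusted p = 4.33e-07) against D3 to D7. The smaller difference between D15 and D0 had a log2 fold change of 0.76 (SE 0.18, adjusted p = 0.00282), and it missed the threshold without D0 pool A (adjusted p = 0.0256), without D0 pool B (0.0172) or without D15 pool A (0.0392) in the same test, with no filter on genes (log2 fold change 0.56, adjusted p = 0.0609) and with only the first aliquot of each pool (0.0218).

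LAMA1 (chromosome 18, 6941742 to 7117797, minus strand) was close to the limit of detection at first and stood at 0.234 and 0.217 CPM on D0, 0.266 and 0.338 on D3, 0.516 and 0.369 on D5 and 0.476 and 0.629 on D7. LAMA1 then stood at 0.709 and 0.809 on D9, 2.39 and 2.31 on D11, 4.59 and 6.51 on D13 and 8.89 and 6.99 on D15. Every later pool was above every earlier one, and each day from D11 on was above the day before it in its mean. The D15 pools held 748 UMIs of LAMA1 and the D0 pools 71, a 33.7-fold higher rate (95% exact interval 26.4 to 43.7, counting error only), and the fit gave a log2 fold change of 5.04 (SE 0.32, adjusted p = 3.77e-08). LAMA3, the alpha chain of the laminin that anchors skin epithelium, was below the filter, at 0.489 to 0.582 CPM on D0, 0.1704 to 0.329 CPM on D3 to D7 and 0.605 to 3.15 CPM on D9 to D15, without overlap between the periods.

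The start regions of 4 genes that the results turn on are given here: LAMA4 and LAMA5, whose ratio did not overlap between the periods, and ITGA4 and ITGA2, which with LAMA4 were among the tested genes that fell most. Each is a RefSeq promoter window on GRCh38.p14, from 250 bases before to 50 bases after the start site it is built on, 5′ to 3′ on the strand of the gene, with each GC box (GGGCGG or its reverse complement CCGCCC, a binding sequence of SP1-type factors) in capitals. They lie at chr6:112254518-112254817 (LAMA4, minus strand), chr20:62367263-62367562 (LAMA5, minus), chr2:181457136-181457435 (ITGA4, plus) and chr5:52989102-52989401 (ITGA2, plus). The start site of the window is the GENCODE gene start for LAMA5 but lies inside the GENCODE gene for ITGA2 (by 12 bases), ITGA4 (by 184) and LAMA4 (by 372), whose window lies wholly within the gene.
LAMA4: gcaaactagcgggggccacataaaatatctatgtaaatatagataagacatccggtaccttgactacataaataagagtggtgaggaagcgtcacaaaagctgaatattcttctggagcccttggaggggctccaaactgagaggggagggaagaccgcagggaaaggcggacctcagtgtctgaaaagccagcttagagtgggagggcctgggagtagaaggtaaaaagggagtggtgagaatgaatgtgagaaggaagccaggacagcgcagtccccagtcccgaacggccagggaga
LAMA5: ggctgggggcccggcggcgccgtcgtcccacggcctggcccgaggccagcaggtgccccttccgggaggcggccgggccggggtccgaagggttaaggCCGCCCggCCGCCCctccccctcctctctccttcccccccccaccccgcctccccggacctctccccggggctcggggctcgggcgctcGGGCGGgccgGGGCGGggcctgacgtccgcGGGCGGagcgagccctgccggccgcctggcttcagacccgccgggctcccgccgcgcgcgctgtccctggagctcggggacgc
ITGA4: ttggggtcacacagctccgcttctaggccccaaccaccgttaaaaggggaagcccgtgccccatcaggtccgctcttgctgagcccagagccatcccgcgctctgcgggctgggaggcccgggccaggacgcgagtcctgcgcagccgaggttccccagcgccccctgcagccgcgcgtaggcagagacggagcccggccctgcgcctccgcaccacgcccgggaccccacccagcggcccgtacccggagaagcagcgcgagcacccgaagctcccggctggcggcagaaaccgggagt
ITGA2: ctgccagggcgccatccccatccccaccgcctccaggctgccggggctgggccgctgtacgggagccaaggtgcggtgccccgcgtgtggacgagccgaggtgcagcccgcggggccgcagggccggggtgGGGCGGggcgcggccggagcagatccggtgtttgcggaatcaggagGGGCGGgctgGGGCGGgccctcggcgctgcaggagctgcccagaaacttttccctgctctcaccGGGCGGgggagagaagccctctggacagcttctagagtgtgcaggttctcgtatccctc

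The LAMA5 window held 5 GC boxes and the ITGA2 window 4, while those of LAMA4 and ITGA4 held none. Of 35116 promoter windows of this length, 45.0% held at least 1, as did 13 of the 23 windows that matched 18 of the 23 genes tested. The windows were 51.3% (LAMA4), 82.7% (LAMA5), 72.3% (ITGA4) and 72.7% (ITGA2) G or C, beside a median of 58.7% over all windows. The AP-1 sequence TGANTCA, the same on both strands, was found in 1 of the 23 windows, that of ITGA5, and in 7.71% of all windows, and the TATA sequence TATAAA, on either strand, in 2 of the 23 and in 11.5% of all. A match describes the letters only.

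Among the beta chains LAMB1 gave 63.85% and 65.04% of UMIs on D0 and 62.8% and 58.6% on D15, with LAMB2 the larger chain in D11 pool A (49.4% against 48.8%) and D13 pool B (53.8% against 44.3%). LAMB1, the beta chain of most embryonic and mesenchymal laminins, stood at 47.9 and 50.1 CPM on D0, 27.7 and 32.9 on D3, 59.0 and 37.8 on D5 and 23.7 and 49.96 on D7. LAMB1 then stood at 23.2 and 24.48 on D9, 17.8 and 29.8 on D11, 19.9 and 9.71 on D13 and 16.4 and 13.6 on D15. It was lower on D15 than on D0, with a log2 fold change of -1.79 (SE 0.37, adjusted p = 9.01e-04), which missed the threshold without D15 pool B (adjusted p = 0.0141), and lower in the later than in the earlier period, with a log2 fold change of -1.06 (SE 0.19, adjusted p = 4.23e-04). LAMB2, which takes the place of LAMB1 in nerve, muscle and kidney laminins, stood at 24.46 and 24.1 CPM on D0, 10.99 and 11.9 on D3, 16.03 and 11.1 on D5 and 11.4 and 17.9 on D7. LAMB2 then stood at 9.06 and 8.396 on D9, 18.0 and 15.7 on D11, 13.6 and 11.8 on D13 and 9.37 and 9.30 on D15. It was lower on D15 than on D0 (log2 fold change -1.46, SE 0.23, adjusted p = 1.08e-04), while the difference between the periods had a log2 fold change of -0.23 (SE 0.12, adjusted p = 0.118). LAMB3, of the epithelial laminin, was at 1.56 and 1.49 CPM on D0 and at 0.332 and 0.309 CPM on D15, and LAMB4 at 1.07 and 1.29 CPM on D0 and at 0 in both pools of D15. LAMB4 had 369 UMIs on D0, so that its level on D15 was at least 38.4-fold lower, taking 3 UMIs over both D15 pools as the floor.

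LAMC3, of the gamma chains, had with LAMA1 the largest log2 fold changes of the 23 genes tested from D0 to D15. LAMC1, the common gamma chain, was read at 51.6 and 55.1 CPM on D0, 41.2 and 56.9 on D3, 75.1 and 70.0 on D5 and 57.7 and 78.0 on D7. LAMC1 then stood at 48.3 and 48.2 on D9, 42.3 and 56.6 on D11, 35.6 and 36.9 on D13 and 30.1 and 29.1 on D15. The D15 pools had a log2 fold change of -0.93 (SE 0.21, adjusted p = 0.00184). That call was lost without D0 pool B (adjusted p = 0.0128), without D15 pool A (0.0142) or without D15 pool B (0.0157), and with only the first aliquot of each pool (0.0206). The later period had a log2 fold change of -0.68 (SE 0.11, adjusted p = 1.89e-04).

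LAMC3, a gamma chain of few adult tissues, lies on chromosome 9 (131009174 to 131094473, plus strand) and was measured at 0.0120 and 0.00679 CPM on D0, 0.107 and 0.0662 on D3, 0.410 and 0.283 on D5 and 0.644 and 0.687 on D7. LAMC3 then stood at 1.75 and 1.83 on D9, 4.78 and 4.42 on D11, 6.70 and 7.49 on D13 and 5.58 and 4.52 on D15. Its level was above that of the day before in both pools up to D13, and no later pool overlapped an earlier one. The D0 pools held 3 UMIs of LAMC3 and the D15 pools 478, a 510-fold higher rate with an exact 95% interval of 174 to 2480, which covers counting error only. The fitted value for D15 against D0 (log2 fold change 8.81, SE 0.37, adjusted p = 2.59e-09) depends on the prior count, while the later period, with 0.0662 to 0.687 CPM before and 1.75 to 7.49 CPM after, had a log2 fold change of 3.89 (SE 0.15, adjusted p = 3.88e-10).

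**Figure D2:**
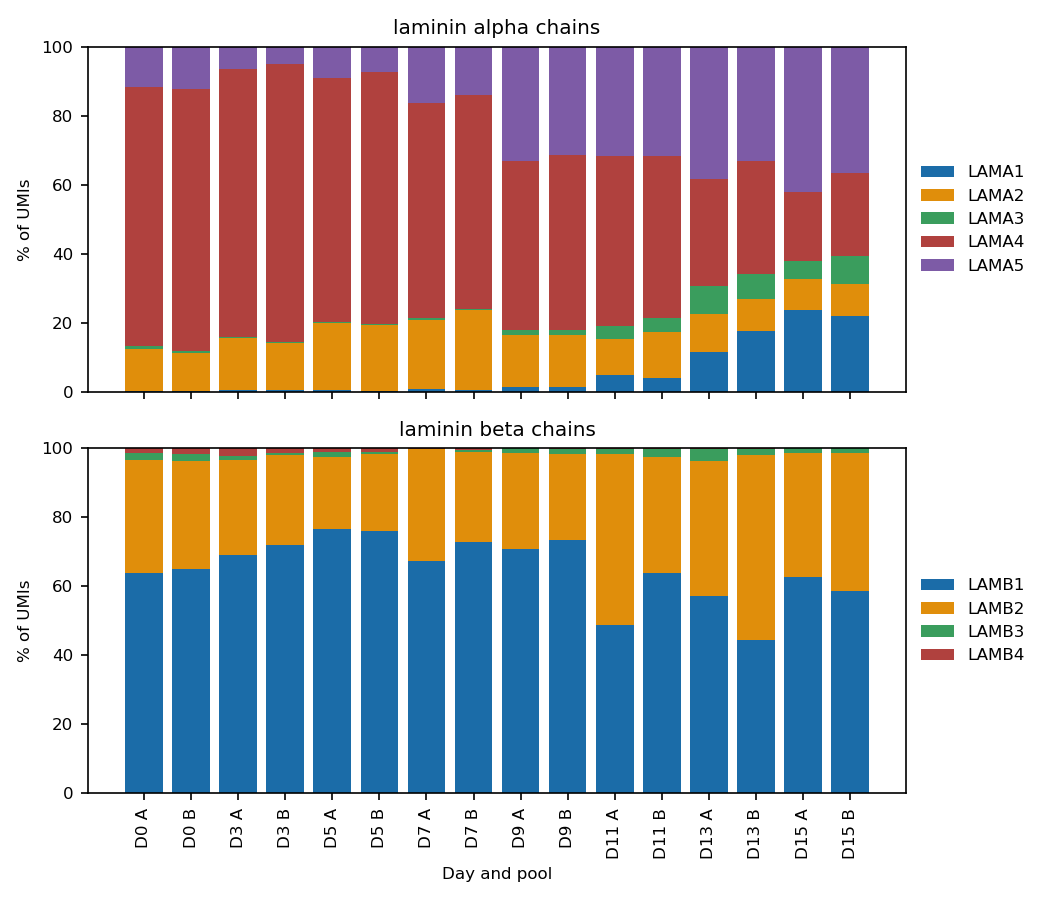
Share of the UMIs of each laminin chain type (percent, bars stacked from 0 to 100) given by each gene in each of the 16 pools, by day and pool letter, for alpha chains (top) and beta chains (bottom). LAMA4 shrinks from 74.9% and 75.7% on D0 to 20.02% and 23.9% on D15 while LAMA5 and LAMA1 widen.

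The integrin alpha subunits of the collagen receptors did not move together. ITGA2, the collagen and laminin receptor subunit of epithelia and platelets, stood at 49.4 and 53.9 CPM on D0, 23.9 and 63.6 on D3, 28.8 and 36.2 on D5 and 36.5 and 29.1 on D7. ITGA2 then stood at 25.3 and 27.8 on D9, 14.4 and 22.3 on D11, 4.77 and 6.43 on D13 and 5.67 and 6.19 on D15. All pools of D13 and D15 were below all pools of the days before. D15 against D0 gave a log2 fold change of -3.20 (SE 0.42, adjusted p = 2.65e-05), and the later against the earlier period a log2 fold change of -1.73 (SE 0.21, adjusted p = 1.40e-05). ITGA10, a subunit best known from cartilage, was at 4.39 and 4.91 CPM on D0, 2.21 and 3.99 on D3, 1.41 and 1.33 on D5 and 0.911 and 0.972 on D7. ITGA10 then stood at 0.285 and 0.302 on D9, 1.16 and 0.935 on D11, 0.441 and 0.382 on D13 and 0.603 and 0.463 on D15. It was lower on D15 than on D0, with a log2 fold change of -3.23 (SE 0.32, adjusted p = 2.18e-06).

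ITGA11, a receptor subunit for fibrillar collagen on fibroblasts (chromosome 15, 68296532 to 68432163, minus strand), stood instead at 3.39 and 4.21 CPM on D0, 1.82 and 3.85 on D3, 6.21 and 5.24 on D5 and 7.24 and 10.3 on D7. ITGA11 then stood at 5.76 and 6.63 on D9, 21.8 and 16.3 on D11, 16.8 and 13.6 on D13 and 5.79 and 7.25 on D15. Its highest pools were those of D11 and D13, and those of D15 were back in the range of D5 and D7. The later period had a log2 fold change of 0.94 (SE 0.18, adjusted p = 6.52e-04), while D15 against D0 had a log2 fold change of 0.70 (SE 0.33, adjusted p = 0.0791) and did not pass. ITGA1, the other widely expressed collagen receptor subunit, ranged from 3.86 to 11.4 CPM over the 16 pools and was called in neither comparison. Its exons overlap those of PELO on the same strand, so its UMIs may not all be its own.

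Of the laminin receptor subunits, ITGA7 rose and ITGA3 fell from D0 to D15, and ITGA6 was not called. ITGA6 was read at 18.5 and 19.0 CPM on D0, 19.7 and 35.7 on D3, 24.6 and 30.6 on D5 and 32.2 and 30.2 on D7. ITGA6 then stood at 22.2 and 32.7 on D9, 14.1 and 22.4 on D11, 10.2 and 21.0 on D13 and 26.9 and 28.1 on D15. D15 against D0 gave a log2 fold change of 0.47 (SE 0.39, adjusted p = 0.298) and the periods a log2 fold change of -0.46 (SE 0.21, adjusted p = 0.0743), neither past the threshold, and the pools of D11 and D13 spread from 10.2 to 22.4 CPM. ITGA3 stood at 13.6 and 16.3 CPM on D0, 10.6 and 13.4 on D3, 11.01 and 7.94 on D5 and 7.18 and 8.65 on D7. ITGA3 then stood at 6.88 and 6.66 on D9, 12.2 and 9.87 on D11, 9.34 and 6.74 on D13 and 6.54 and 7.22 on D15. It was lower on D15 than on D0 (log2 fold change -1.20, SE 0.23, adjusted p = 4.92e-04), the pools of D11 lying in between. ITGA7, known from muscle, was at 2.19 and 2.03 CPM on D0, 0.692 and 0.775 on D3, 0.867 and 0.482 on D5 and 0.785 and 1.18 on D7. ITGA7 then stood at 1.19 and 1.34 on D9, 2.99 and 3.85 on D11, 3.55 and 5.86 on D13 and 6.27 and 6.11 on D15. It fell on D3 and rose late, with every later pool above every earlier one, and a log2 fold change of 2.04 (SE 0.18, adjusted p = 8.12e-07) for the later period. For D15 against D0 it had a log2 fold change of 1.47 (SE 0.31, adjusted p = 0.00119), lost without D0 pool B (adjusted p = 0.0141).

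Of the subunits that bind fibronectin and vitronectin, ITGA5, the main fibronectin receptor subunit of fibroblasts, stood at 36.9 and 40.8 CPM on D0, 33.5 and 26.6 on D3, 44.6 and 16.1 on D5 and 17.3 and 35.2 on D7. ITGA5 then stood at 25.8 and 23.3 on D9, 25.0 and 28.7 on D11, 36.7 and 17.3 on D13 and 13.8 and 15.0 on D15. On D5 and D13 pool A stood well above pool B. Its log2 fold change of -1.52 (SE 0.42, adjusted p = 0.00643) for D15 against D0 missed the threshold without any 1 of D0 pool A (adjusted p = 0.0230), D0 pool B (0.0310), D11 pool A (0.0104), D11 pool B (0.0104), D15 pool A (0.0511) and D15 pool B (0.0358), and with plain library totals (0.0155). ITGAV, which binds vitronectin and latent TGF beta, was at 19.8 and 23.8 CPM on D0, 21.4 and 34.6 on D3, 36.3 and 40.2 on D5 and 35.3 and 44.2 on D7. ITGAV then stood at 26.2 and 30.1 on D9, 43.4 and 45.5 on D11, 33.2 and 42.3 on D13 and 21.5 and 27.0 on D15. Its D15 pools reached from inside to above the range of D0, with a log2 fold change of 0.08 (SE 0.27, adjusted p = 0.814), and the periods gave a log2 fold change of -0.14 (SE 0.14, adjusted p = 0.431). ITGA8, a receptor subunit for nephronectin, was below the filter, at 3.04 and 3.47 CPM on D0 and 0.512 and 0.201 CPM on D15.

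ITGA4 (chromosome 2, 181457202 to 181538940, plus strand), a receptor subunit for fibronectin and VCAM1, had the largest fall of the 23 genes. It stood at 19.3 and 16.6 CPM on D0, 23.2 and 47.4 on D3, 30.8 and 44.2 on D5 and 35.3 and 25.1 on D7. ITGA4 then stood at 8.42 and 9.66 on D9, 8.12 and 7.07 on D11, 3.62 and 2.77 on D13 and 1.18 and 2.65 on D15. It was highest on D3 to D7 and lower in each later pool than in any pool before. D15 against D0 gave a log2 fold change of -3.27 (SE 0.44, adjusted p = 2.77e-05) and the later against the earlier period a log2 fold change of -2.96 (SE 0.22, adjusted p = 1.21e-07). Its closest relative ITGA9, below the filter, stood at 0.162 and 0.143 CPM on D0 and at 1.84 and 1.79 CPM on D15, with 0.0852 to 0.658 CPM on D3 to D7 and 1.14 to 1.92 CPM on D9 to D15. It was tested only in the alternative with no filter on genes, where D15 against D0 gave a log2 fold change of 3.27. ITGAE, a subunit known from lymphocytes in epithelia, had the second highest mean level of these genes over the 16 pools, at 113.5 and 113.5 CPM on D0, 91.7 and 102.8 on D3, 63.3 and 76.0 on D5 and 76.1 and 72.2 on D7. ITGAE then stood at 63.6 and 61.8 on D9, 70.9 and 67.7 on D11, 66.5 and 78.8 on D13 and 54.2 and 63.9 on D15. Its D15 pools had a log2 fold change of -1.03 (SE 0.19, adjusted p = 4.67e-04) against D0. ITGB7, its only known partner, never passed 0.216 CPM, and exons of HASPIN lie over those of ITGAE on the opposite strand. The 4 subunits of leukocyte integrins ITGAD, ITGAL, ITGAM and ITGAX were at 0.278 CPM or less in every pool.

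ITGB1, the beta subunit shared by most of the alpha subunits above, had by far the highest level, at 680.5 and 627.7 CPM on D0, 278.5 and 635.2 on D3, 566.7 and 382.6 on D5 and 446.2 and 409.1 on D7. ITGB1 then stood at 362.6 and 468.4 on D9, 687.4 and 722.7 on D11, 328.4 and 506.4 on D13 and 387.4 and 269.0 on D15. It gave 97.0% and 96.4% of integrin beta UMIs on D0 and 92.6% and 89.7% on D15. D15 against D0 gave a log2 fold change of -1.08 (SE 0.37, adjusted p = 0.0205), short of the threshold, and pools A and B of D3 differed by more than D3 and D0 did. ITGB5, which pairs with ITGAV, was at 17.3 and 19.3 CPM on D0, 11.3 and 4.93 on D3, 11.6 and 7.31 on D5 and 8.43 and 18.7 on D7. ITGB5 then stood at 26.9 and 31.9 on D9, 31.7 and 60.4 on D11, 44.7 and 32.8 on D13 and 28.1 and 27.6 on D15. All 8 later pools were above all 6 earlier ones, with a log2 fold change of 1.74 (SE 0.23, adjusted p = 2.76e-05), while D15 and D0 differed by a log2 fold change of 0.52 (SE 0.40, adjusted p = 0.267). ITGB8, another partner of ITGAV, was at 1.16 and 1.44 CPM on D0, 0.213 and 0.311 CPM on D3 and 1.89 and 1.64 CPM on D5. The remaining beta subunits were below the filter. ITGB4, the partner of ITGA6 in hemidesmosomes, stood at 1.72 and 1.57 CPM on D0 and between 0.369 and 1.20 CPM afterwards. ITGB2, ITGB3, ITGB6 and ITGB7 did not reach 1 CPM in both pools of any day, the highest value of these and the 4 leukocyte alpha subunits being 1.07 CPM. ITGB2, of leukocyte integrins, had 3 UMIs on D0 and 229 on D9 (0.951 and 1.06 CPM there). The 4 leukocyte markers summed to 4.34 and 4.08 CPM on D0 and to 14.9 and 16.8 CPM on D9. CORO1A went from 2.31 and 2.23 to 10.8 and 12.1 CPM, CD53 from 0 in both pools to 2.197 and 2.523 CPM and LAPTM5 from 1.19 and 1.18 to 1.57 and 1.61 CPM, while PTPRC, a marker of all leukocytes, went from 0.840 and 0.666 over 2.02 and 1.51 on D7 to 0.363 and 0.515 CPM. On D7 ITGB2 was at 0.420 and 0.417 CPM. The part of such cells in ITGB2 was not tested.

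**Figure D3:**
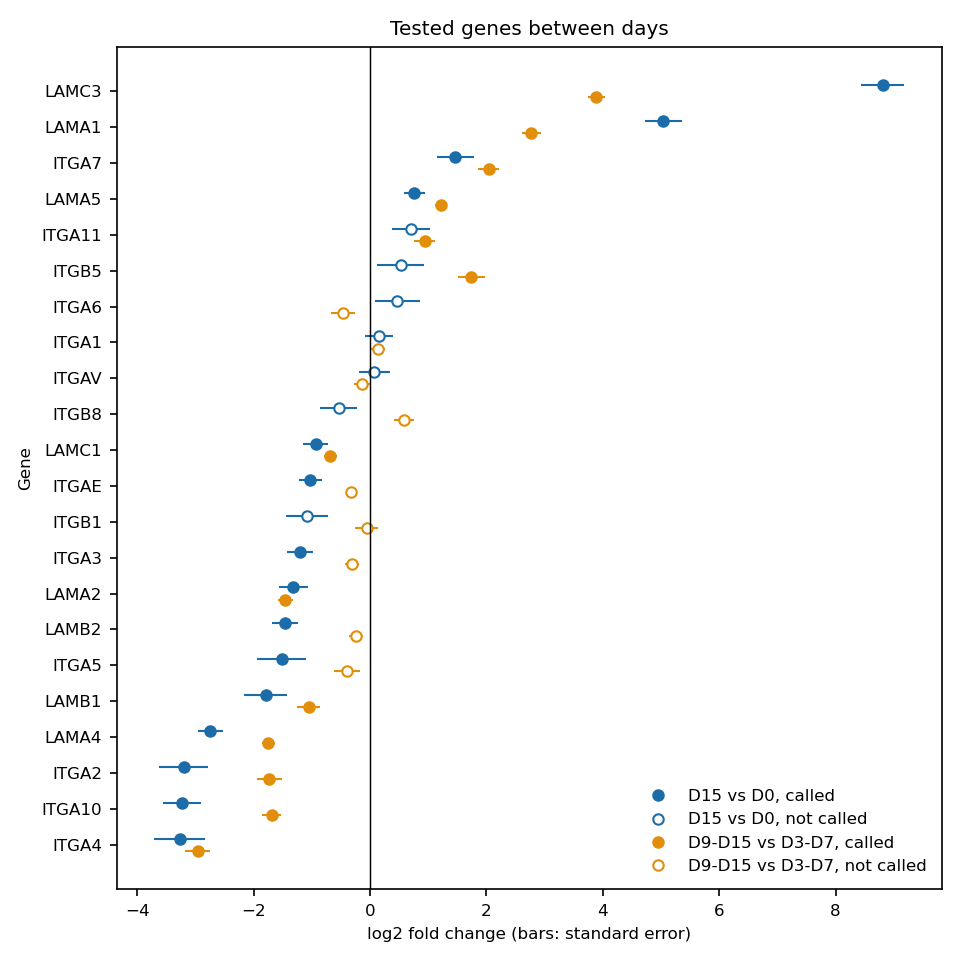
Log2 fold change with its standard error (horizontal axis) of the genes tested (rows), for D15 against D0 (blue) and for D9 to D15 against D3 to D7 (orange), filled where called and open where not. For D15 against D0, LAMC3 and LAMA1 lie farthest to the right and ITGA4, ITGA10, ITGA2 and LAMA4 farthest to the left.

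Between adjacent days, which ask when the changes took place, 6 genes were called on D3 against D0 (2 higher, LAMC3 among them, and ITGB8, ITGA7, LAMA5 and LAMB2 lower). These were 8.70% and 17.4% of the 23 genes, near the 13.1% and 12.2% of all genes. On D5 against D3, 4 were higher and none lower (LAMC3, ITGB8, LAMA5 and LAMA2, 17.4% of the 23, beside 3.39% and 0.363%). On D7 against D5 none was called by edgeR or DESeq2 (beside 1.82% and 0.247%), 3 having an unadjusted p below 0.05. On D9 against D7, 1 was higher (LAMC3, 4.35%) and 4 lower (ITGA4, ITGA10, LAMA2 and LAMA4, 17.4%), beside 4.77% and 2.73%. The share of higher ones there was near that of all genes. On D11 against D9, 4 were higher (ITGA10, ITGA11, LAMA1 and LAMC3, 17.4%) and none lower, beside 3.12% and 1.27%. On D13 against D11 none was called by edgeR (beside 0.0618% and 0.085%), with 8 at an unadjusted p below 0.05 and 4 called by DESeq2, and on D15 against D13 none (beside 0% and 0.085%), with 5 and 1.

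The largest of these steps were the rises of LAMC3 on D3 (log2 fold change 2.96, SE 0.49, adjusted p = 5.73e-04, from the 3 UMIs of D0) and on D5 (log2 fold change 2.02, SE 0.32, adjusted p = 0.0017) and the rise of ITGB8 on D5 (log2 fold change 2.65, SE 0.34, adjusted p = 3.57e-04) after its fall on D3 (log2 fold change -2.31, SE 0.33, adjusted p = 1.99e-04). ITGA10 rose on D11 (log2 fold change 1.82, SE 0.31, adjusted p = 0.00303) after a fall on D9 (log2 fold change -1.72, SE 0.31, adjusted p = 0.00258). LAMC3 was called on 4 of the 7 steps, each time higher. ITGA4 fell on D9 with a log2 fold change of -1.78 (SE 0.40, adjusted p = 0.0097), LAMA4 with a log2 fold change of -0.90 (SE 0.20, adjusted p = 0.00969), calls that were lost in 13 and 14 of 25 alternatives. The calls of LAMA2 on D5 and on D9 and of ITGA11 on D11 were each lost in 13 of 25, and each of the other named calls between adjacent days in at most 5. These counts rested on single pools. On D3 against D0 the count was 3 without D0 pool B. On D5 against D3 it was 2 without D3 pool B and 1 without D5 pool A. On D9 against D7 it was 0 without D7 pool B, D9 pool A or D9 pool B, 2 without D0 pool A, D0 pool B, D5 pool A or D5 pool B, and 3 without D7 pool A, D11 pool A, D11 pool B, D15 pool A or D15 pool B. On D11 against D9 it was 0 without D9 pool A, D9 pool B or D11 pool A and 1 without D11 pool B. On D13 against D11 it was 1 without D3 pool A, D3 pool B or D13 pool A.

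Ratios of 2 subunits within a pool do not depend on how pools are scaled, but do depend on the mix of cells. They were compared for 10 pairs between the 6 pools of D3 to D7 and the 8 of D9 to D15. UMIs plus 0.5 were used on each side. The largest differences were those of laminin alpha chains. The log2 ratio of LAMA5 to LAMA4 was -3.01 ± 0.82 (SD, n = 6) in the earlier and -0.06 ± 0.67 (SD, n = 8) in the later pools, from a mean of -2.65 on D0. The ranges did not overlap, and the adjusted p was 0.00167 (two-sided exact permutation test over 3003 splits of the pools, adjusted over the 10 ratios), from the smallest p these splits can give, 0.000333. LAMA1 to LAMA4 stood at -6.89 ± 0.47 (SD, n = 6) in the earlier and -2.39 ± 2.12 (SD, n = 8) in the later pools, from a mean of -7.70 on D0 (adjusted exact p = 0.00222), again without overlap, and reached 0.26 and -0.12 on D15, where LAMA1 had 295 and 453 UMIs and LAMA4 247 and 493.

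Ranges overlapped for the ratios that follow. LAMB3 to LAMB1 was -6.64 ± 0.98 (SD, n = 6) in the earlier and -5.14 ± 0.62 (SD, n = 8) in the later pools, from a mean of -5.003 on D0 (adjusted exact p = 0.00333), and LAMB2 to LAMB1 -1.50 ± 0.30 (SD, n = 6) in the earlier and -0.68 ± 0.62 (SD, n = 8) in the later pools, from a mean of -1.01 on D0 (adjusted exact p = 0.0176). Among integrins, ITGB5 to ITGB3 was 5.64 ± 0.65 (SD, n = 6) in the earlier and 7.48 ± 0.78 (SD, n = 8) in the later pools, from a mean of 5.17 on D0 (adjusted exact p = 0.00333), and ITGA2 to ITGA11 2.77 ± 0.96 (SD, n = 6) in the earlier and 0.11 ± 1.41 (SD, n = 8) in the later pools, from a mean of 3.77 on D0 (adjusted exact p = 0.00555). On D15 the ratio of ITGA2 to ITGA11 was -0.03 and -0.23, with about as many UMIs of either gene. These are UMIs of whole pools and need not come from the same cells. In cells grouped by markers, as described below, median ITGA11 over D9 to D15 was 59.6 CPM in fibroblast-marker and 1.29 CPM in pluripotency-marker cells. For ITGA2 these medians were 23.6 and 5.64 CPM. ITGB3 and LAMB3 were below the filter, so their ratios rested on few UMIs in some pools. ITGB3 had 2 UMIs in D15 pool A, where its ratio was highest (8.54), and 4 in D5 pool B. LAMB3 had 9 in D7 pool A, where its ratio was lowest (-8.47), and 11 in D15 pool A. The median level of ITGB3 was 0.17 CPM in the earlier and 0.197 CPM in the later pools. These tests split pools freely, while the 2 pools of a day share that day. Split by whole days, of which there are 3 earlier and 4 later ones, 35 splits allow no p under 0.0286, and none of the 10 ratios passed after adjustment (adjusted exact p = 0.0952 for LAMA5 to LAMA4 and ITGB5 to ITGB3, 0.114 for LAMA1 to LAMA4 and LAMB3 to LAMB1, 0.143 for ITGA2 to ITGA11 and 0.163 for LAMB2 to LAMB1). The ratios ITGA6 to ITGA5, ITGA6 to ITGA3 and ITGAV to ITGA5 differed between the periods by -0.14, -0.17 and 0.21, with adjusted exact p of 0.784, 0.730 and 0.661. On D0 these 3 ratios had means of -1.05, 0.33 and -0.84, and the pools of D3 to D7 spread with an SD of 0.80, 0.49 and 0.75.

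**Figure D4:**
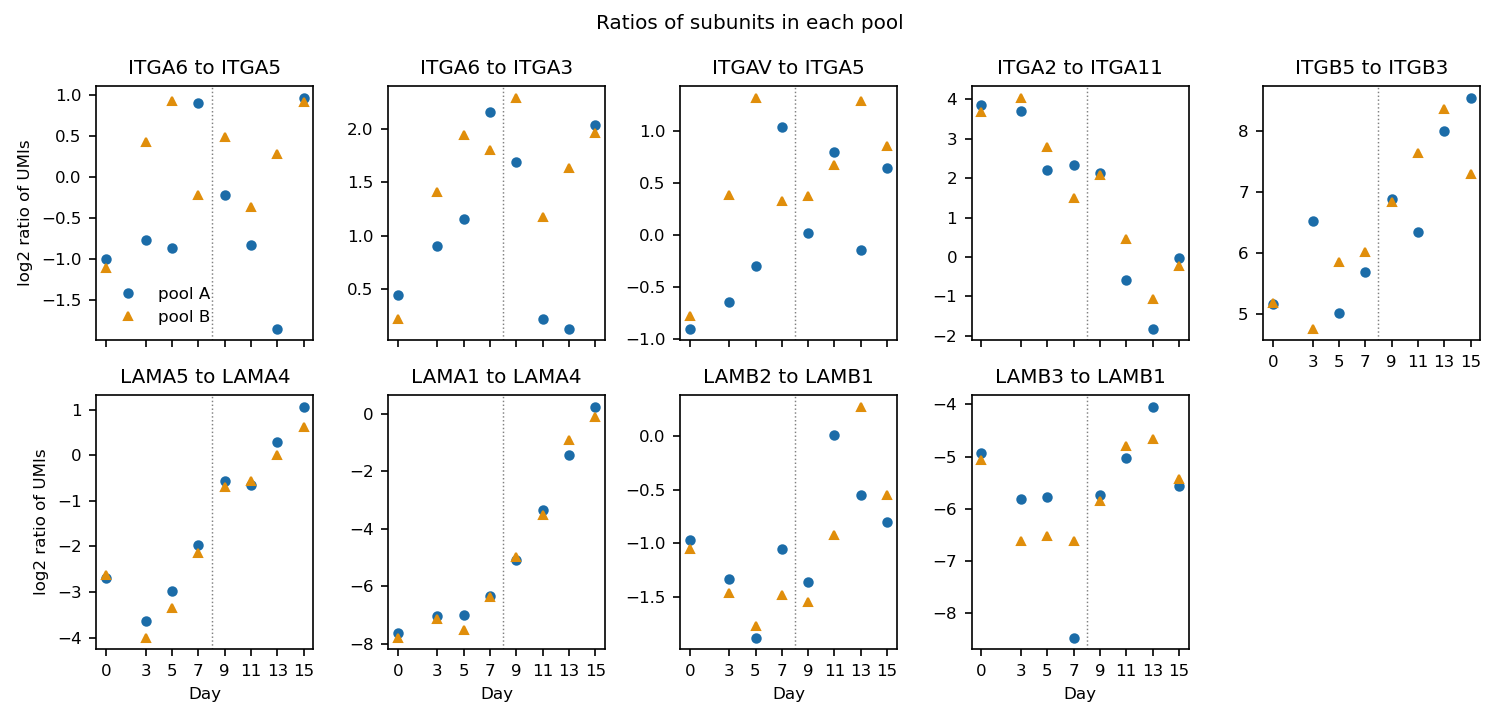
Log2 ratio of the UMIs of 2 subunits (vertical axis, a panel per ratio) in each pool by day (blue circles pool A, orange triangles pool B, dotted line between the earlier and the later period). LAMA5 to LAMA4 and LAMA1 to LAMA4 separate the periods, while the ratios of ITGA6 and ITGAV to ITGA5 spread between pools of a day.

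From D9 the pools held cells of different kinds, so each cell was placed by its markers. The score was the log2 difference between the CPM + 1 of 8 pluripotency and 8 fibroblast markers, and none of the 37 genes is among these markers. Of 17727 cells of D9 to D15, 10248 were pluripotency-marker cells (score above 0), 4799 fibroblast-marker cells (below -2), 1212 mesendoderm-marker cells (4 or more of 8 mesendoderm markers detected, whatever the depth and the score) and 1468 in between. These are ranges of a score or a count of detected markers, not cell types, and 623 and 881 cells lay within 0.5 of the 2 limits of the score. Fibroblast-marker cells were 38.9% and 28.4% of cells on D9 and 8.76% and 9.25% on D15, where D15 pool A had 50 of them. Their median depth was 21313 to 52697 UMIs per cell over the pools, and that of the pluripotency-marker cells 31464 to 71967.

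Compared within the 8 pools of D9 to D15 (edgeR with the pool as a block), 15 of 23 genes were lower in pluripotency-marker than in fibroblast-marker cells and 1 was higher (65.2% and 4.35%), beside 33.4% and 36.8% of all 12928 genes tested. The median log2 difference of the 23 was -1.71, against 0.06 for all genes. ITGA11 had the largest difference, at 16.1 to 85.7 CPM (median 59.6) in fibroblast-marker and 0.707 to 6.42 CPM (median 1.29) in pluripotency-marker cells, a log2 difference of -4.83 (SE 0.36, adjusted p = 1.30e-06). ITGA4 was at 11.98 to 23.3 CPM (median 19.3) in fibroblast-marker and 0.347 to 2.73 CPM (median 0.932) in pluripotency-marker cells, a log2 difference of -3.96 (SE 0.31, adjusted p = 1.68e-06). ITGAV was at 44.9 to 152.0 CPM (median 97.3) in fibroblast-marker and 8.82 to 22.2 CPM (median 14.1) in pluripotency-marker cells and ITGA5 at 41.4 to 86.0 CPM (median 59.0) in fibroblast-marker and 4.59 to 11.8 CPM (median 9.27) in pluripotency-marker cells, with log2 differences of -2.64 and -2.73. None of these ranges overlapped. Also lower, in 8 of 8 pools each, were ITGA1 (-2.94), ITGA10 (-2.92), ITGA3 (-2.31), LAMB1 (-2.10), LAMA2 (-1.86), LAMB2 (-1.86), ITGB1 (-1.75), LAMC1 (-1.71), LAMA4 (-1.23) and ITGAE (-0.51).

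LAMA3, below the filter, was at 0.214 to 0.850 CPM (median 0.441) in fibroblast-marker and 0.884 to 4.45 CPM (median 2.81) in pluripotency-marker cells, without overlap. LAMA1 and LAMC3 were not called between the classes: LAMA1 was at 0.675 to 7.50 CPM (median 2.84) in fibroblast-marker and 0.777 to 7.82 CPM (median 3.10) in pluripotency-marker cells, a log2 difference of 0.15 (SE 0.11, adjusted p = 0.22), and LAMC3 at 1.18 to 18.8 CPM (median 5.26) in fibroblast-marker and 2.04 to 6.57 CPM (median 4.57) in pluripotency-marker cells, a log2 difference of -0.07 (SE 0.35, adjusted p = 0.859). LAMA5 had a log2 difference of 0.25 (SE 0.08, adjusted p = 0.0192) and ITGA6 a log2 difference of 0.67 (SE 0.23, adjusted p = 0.0196), higher in 7 and 8 of 8 pools but short of the threshold. ITGA2 differed in sign between days, which was not tested. On D9 it was at 27.6 and 30.6 CPM in pluripotency-marker cells and 23.1 and 24.6 CPM in fibroblast-marker cells, and on D11 at 6.71 and 6.34 CPM against 32.5 and 59.1 CPM. Its overall log2 difference of -1.66 (SE 0.43, adjusted p = 0.00505) was lost without D11 pool A (adjusted p = 0.0149), D11 pool B (0.0133), D13 pool A (0.0158), D13 pool B (0.0148) or D15 pool B (0.0115), and without the pool block (log2 difference -1.23, adjusted p = 0.0408).

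Within fibroblast-marker cells some integrins stood higher on each later day than in the fibroblasts of D0, all of which fell in that class. ITGAV was at 19.8 and 23.8 CPM on D0, 44.9 and 57.4 CPM on D9, 79.6 and 101.7 CPM on D11, 92.8 and 131.6 CPM on D13 and 152.3 and 151.1 CPM on D15. ITGA11 was at 3.38 and 4.21 CPM on D0, 16.1 and 23.4 CPM on D9 and 70.6 and 85.7 CPM on D15, and ITGA1 at 5.26 and 5.50 CPM on D0 and 40.7 and 55.0 CPM on D15. In the pluripotency-marker cells of D15, which were 84.8% and 81.3% of the cells, ITGAV was at 8.82 and 12.1 CPM. These levels over days were not tested.

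In all 8 pools LAMA1 and LAMC3 were read above their D0 level in the cells of both classes. LAMA1 reached 5.56 and 7.50 CPM in fibroblast-marker cells and 7.82 and 5.83 CPM in pluripotency-marker cells on D15, and LAMC3 18.8 and 10.9 CPM and 4.41 and 3.94 CPM. The 8 pluripotency markers of the score summed to 154.4 to 581.8 CPM in the fibroblast-marker cells of these pools, against 2681 to 4369 CPM in the pluripotency-marker cells, and the part of RNA from other cells in the LAMA1 and LAMC3 of fibroblast-marker cells was not tested. Mesendoderm-marker cells numbered at least 50 in 5 pools, and there LAMA1 was at 3.45 to 23.6 CPM, above both other classes in 5 of 5 pools. ITGA9 (1.74 to 13.3 CPM) was likewise above both in 5 of 5, the only other of the 37 genes to be so. In all, 12 of the 37 were above the pluripotency-marker cells in 5 of 5 pools, among them ITGA5 (25.1 to 159.2 CPM) and LAMB1 (13.3 to 53.6 CPM), which were above the fibroblast-marker cells in 3 and 1 of 5. These cells were not tested against the others.

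Pools D11 A and D13 B stood apart from the other pools in the ratio of LAMB2 to LAMB1, above 0 on the log2 scale in them alone (0.0179 and 0.28), and in the ITGA11 of their pluripotency-marker cells. The ratio in D11 pool A was close to 0, from 3247 UMIs of LAMB2 and 3207 of LAMB1. D11 pool A also held 16.7% mesendoderm-marker cells, against 4.02% in D11 pool B. That class counts detected markers and so depends on depth, with a median of 56077 and 44743.5 UMIs per cell in these pools. The summed mesendoderm markers stood closer together, at 222.8 and 159.1 CPM. ITGA11 in pluripotency-marker cells was at 6.42 CPM in D11 pool A and 4.26 CPM in D13 pool B, and at 0.707 to 1.53 CPM in the other 6 pools. LUM, 1 of the 8 fibroblast markers of the score, was at 37.2 and 16.9 CPM in the pluripotency-marker cells of D11 pool A and D13 pool B and at 2.02 to 9.96 CPM in the others. All 8 markers together summed to 1238 and 790.5 CPM in the pluripotency-marker cells of these 2 pools and to 447.8 to 839.6 CPM in the others. The sum thus set D11 pool A apart but not D13 pool B. It includes THY1, which in whole pools went from 501.9 and 467.7 CPM on D0 to 317.2 and 362.7 CPM on D15. LUM went from 1015 and 893.8 to 20.01 and 26.63 CPM between the same days. How much of the sum THY1 gave in pluripotency-marker cells was not tested, so the sum does not decide whether D13 pool B differed. The part of free RNA or of mixed droplets in the low levels of fibroblast genes in pluripotency-marker cells was not tested.

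**Figure D5:**
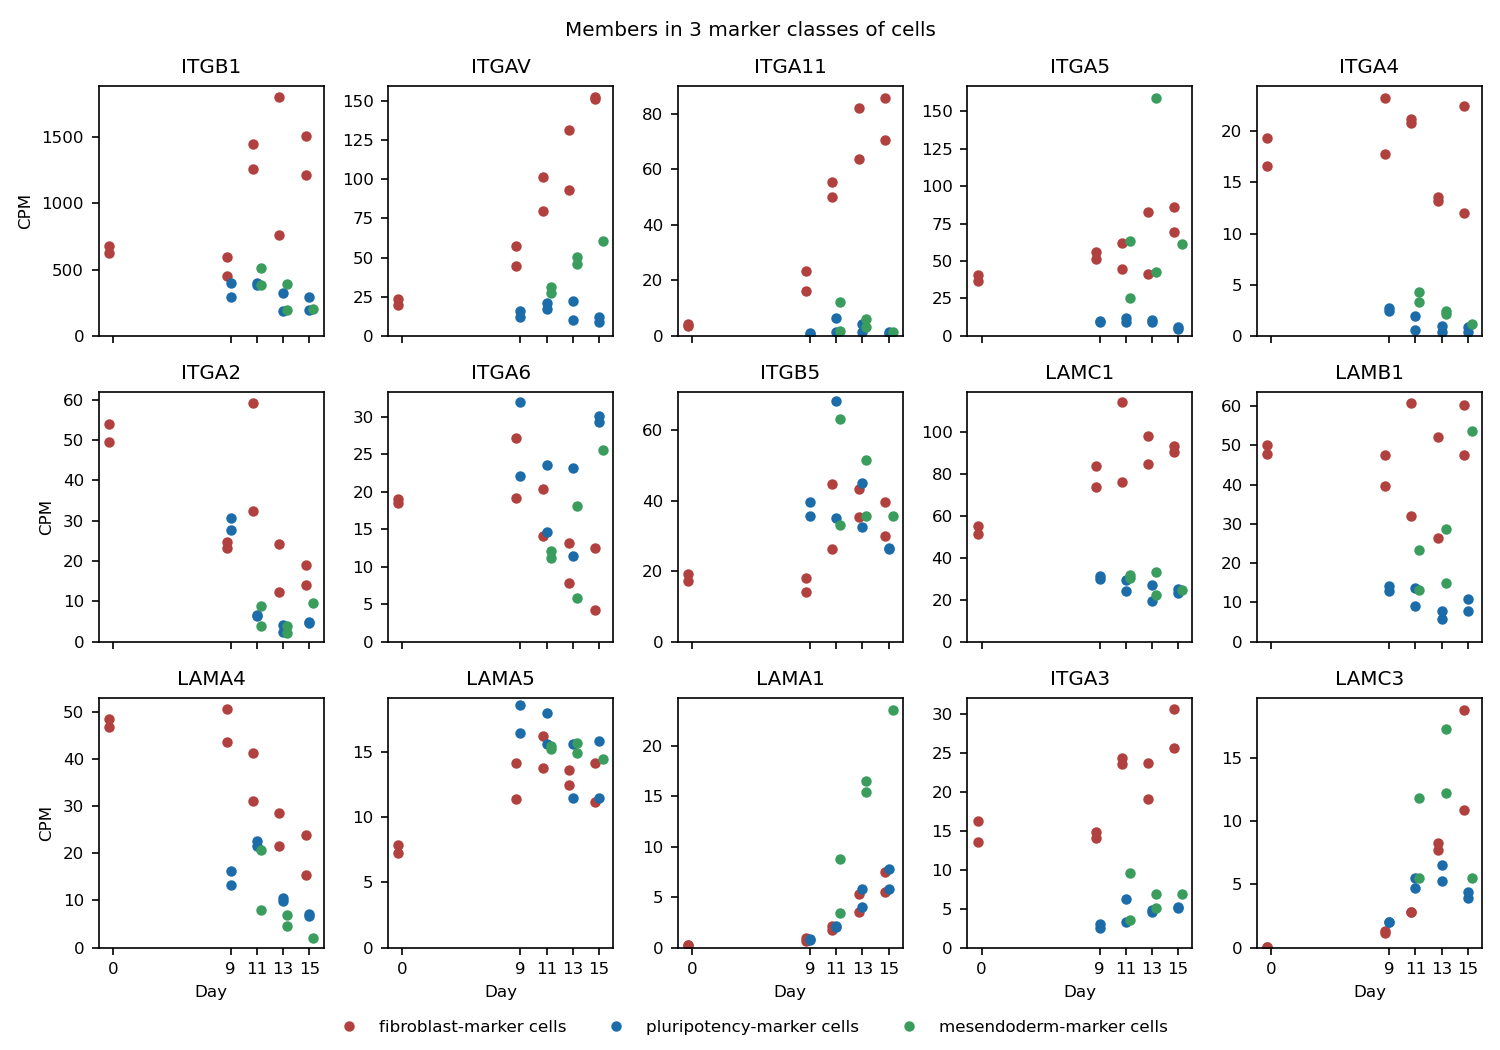
Level (CPM, axis from 0, a panel per gene) of 15 integrin and laminin genes in fibroblast-marker (red), pluripotency-marker (blue) and mesendoderm-marker cells (green) of each pool with at least 50 such cells, by day from D0 and D9 to D15, with small sideways shifts between classes. ITGAV and ITGA11 climb in the red points and stay low in the blue, while LAMA1 and LAMA5 lie together in red and blue.

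Partners of these genes were read from 4 lists. Of 18 basement membrane partners, 13 were tested, and in D15 against D0 5 were higher and 3 lower (38.5% and 23.1%, median log2 fold change 0.77), beside 26.8% and 26.3% of all genes tested. COL4A6, COL4A1 (both chains of basement membrane collagen) and FRAS1, of the embryonic epithelial basement membrane, rose, with log2 fold changes of 3.42, 2.59 and 2.39. NID2 and NID1, nidogens that link laminin to collagen IV, and COL15A1 fell, with values of -2.99, -1.51 and -2.85. Of 9 other laminin receptors and membrane partners of receptors, all tested, 2 were higher and 5 lower (22.2% and 55.6%, median -1.60), the share of higher ones being near that of all genes. BCAM, which binds laminins with the LAMA5 chain, rose with a log2 fold change of 2.01 and DAG1, dystroglycan, with 0.84. SGCE and SGCB, sarcoglycans and so partners rather than laminin receptors, and SDC3, a syndecan, fell with values of -2.84, -2.47 and -2.28.

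A list of 24 genes held adaptors, kinases and regulators of integrin adhesions, and is called adaptors here. Of these, 23 were tested, with 2 higher and 10 lower (8.70% and 43.5%, median -0.77), beside the same 26.8% and 26.3% of all genes. FERMT1 and FERMT2, kindlins that activate integrins, rose with log2 fold changes of 2.47 and 1.03. LPXN, TGFB1I1 and LIMS2, adaptors of focal adhesions, fell with values of -5.11, -3.49 and -2.54. A list of 14 genes held integrin ligands together with TGF beta genes and latent TGF beta binding proteins, and is called ligands here. Of these, 11 were tested, with 3 higher and 5 lower (27.3% and 45.5%, median -0.42), the share of higher ones again near that of all genes. SPP1, osteopontin, ICAM1 and TGFB2 were higher on D15 than on D0, with log2 fold changes of 6.93, 1.59 and 1.47. Each of them stood higher still on D9. SPP1 was at 0.582 and 0.659 CPM on D0, 1177 and 1315 CPM on D9 and 53.4 and 106.5 CPM on D15. FBLN5, THBS1 and FBN1, matrix proteins, fell with values of -3.58, -2.84 and -2.41. In the later against the earlier period, where 21.3% of all genes were higher and 22.5% lower, the counts were 7 higher and 3 lower of 13 basement membrane partners, 2 and 3 of 9 laminin receptors and their membrane partners, 1 and 6 of 23 adaptors and 3 and 1 of 11 ligands. Of these shares, the 23.1% of basement membrane partners that were lower, the 22.2% of receptors and their membrane partners that were higher and the 26.1% of adaptors that were lower lay near those of all genes. Between pluripotency-marker and fibroblast-marker cells, where 36.8% of all genes were higher and 33.4% lower, they were 1 higher and 10 lower of 13, 2 and 6 of 9, 1 and 17 of 23 and 0 and 9 of 11, in the same order.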

How the data were processed

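Single-cell RNA was sequenced with 10x 3′ chemistry. The deposited files hold UMI counts per gene and cell barcode, which the authors made with Cell Ranger 2.2 against hg38 (version from the submitters' processing notes), and they are whole numbers without normalization. Of 44197 deposited barcodes, 41975 were kept (1000 genes or more, and no more than 10% of UMIs mitochondrial). No doublet caller was run. Counts of kept cells were summed per pool, aliquots included, and genes with a UMI in at least 5% of cells, averaged over days, were tested. All 16 pools entered 1 fit by edgeR's quasi-likelihood test (edgeR 4.0.16, R 4.3.3, TMM normalization), with calls at an adjusted p below 0.01 and an absolute log2 fold change above 0.25. Classes were compared with the pool as a block, and their score limits were chosen after the data were seen. Ratios were compared by exact permutation tests over pools (numpy 2.4.6). Scripts were tested on simulated data. DESeq2 1.42.0, other filters, thresholds and normalizations, leaving out each pool, single aliquots and splits of whole days were the alternatives, of which plain library totals, single aliquots and splitting whole days in the ratio tests were chosen after seeing the data.

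Intervals from counts (scipy 1.17.1) cover counting error only. Gene positions are from GENCODE 44 on GRCh38. Genes were named by rule: every gene at 1 CPM or more in both pools of a day, with values in every pool for the 14 of highest mean level and for each gene called in the 2 long comparisons, and up to 3 called genes a direction from each list. The values of 1 gene are not reported here, and it enters only counts and sums over genes. The genes, markers and lists were chosen with earlier results of these data known. Pool letters did not pair the samples: over 28 pairs of days, the deviations of same-lettered pools correlated with r from -0.404 to 0.808 (median -0.0241).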

Additional observations from a re-analysis of the deposited data

How the results depend on the processing

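Of 65 gene and comparison pairs with a call, 44 kept it under every alternative and none changed direction. For D9-D15 against D3-D7, 24 of the genes were called with no filter on genes, where all 37 were tested, in place of 14 of the 23 tested with it. For D9 against D7 the count of 5 became 3 with no filter on cells or with plain library totals, and 2 with second aliquots only. For D11 against D9, 2 in place of 4 were called with first aliquots only. For D13 against D11, 3 were called at an adjusted p under 0.05 whatever the fold, 4 by DESeq2 and 2 with no filter on genes, in place of 0, and for D15 against D13, 1 by DESeq2 and 1 with no filter on genes. Leaving out 1 pool at a time gave counts of 3 to 9 (D3 against D0), 1 to 4 (D5 against D3), 0 to 5 (D9 against D7), 0 to 5 (D11 against D9) and 0 to 1 (D13 against D11), with 12 to 17 for D15 against D0. Where this left a day with 1 pool, that pool was assumed to vary like the others. The direction of 2 ratios that missed the threshold turned: with D0 added to the earlier days, ITGA6 to ITGA5 differed by 0.14 and ITGA6 to ITGA3 by 0.14, and with 1 pool left out by -0.33 to 0.11 and -0.30 to 0.0106. With whole days split in place of pools, none of the 10 ratios passed an adjusted p of 0.05, the differences being those of the pools (LAMA1 to LAMA4 4.51, LAMA5 to LAMA4 2.95, ITGA2 to ITGA11 -2.65, ITGB5 to ITGB3 1.84, LAMB3 to LAMB1 1.5 and LAMB2 to LAMB1 0.82). The 35 splits allow no raw exact p under 0.0286. Of the ratios just named, LAMA5 to LAMA4 and ITGB5 to ITGB3 were at this limit. The raw exact p was 0.0571 for LAMA1 to LAMA4 and LAMB3 to LAMB1, 0.0857 for ITGA2 to ITGA11 and 0.114 for LAMB2 to LAMB1. With the pool letter as a replicate block, 16 genes were called for D15 against D0 and 15 for D9-D15 against D3-D7, the counts of the adjacent days being 6, 4, 0, 5, 4, 0 and 0; without the pool block, 15 were called between classes. The cause of these shifts was not tested. Genes under about 1 CPM are limited by depth, and 2 pools a day leave 1 degree of freedom within a day.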
